A study of Mus musculus with 8 samples.

Results

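Translation initiation and elongation factors load ribosomes onto mRNA and drive them along it. They are followed here in mouse tibialis anterior muscle given a plasmid for spermine oxidase. The set holds every gene on the array whose symbol starts with Eif, Eef1 or Eef2, which gave 58 of the 16593 genes measured, read by 95 probes. Each gene was represented by its brightest probe over all 8 arrays. The rule is one of names and also takes in kinases, binding proteins and methyltransferases that act on the factors, and the DEAD-box protein Eif4a3.

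The tibialis anterior is a mostly fast hindlimb muscle. Muscles came from male C57BL/6 mice aged 8 weeks and were taken 7 days after transfection, 4 with a control plasmid and 4 with a plasmid encoding spermine oxidase. Both groups had therefore been transfected, and no untransfected muscle is analysed here. Neither the promoter of the plasmid nor the share of fibres that took it up is known here. Each muscle was measured on 1 Illumina bead array. Muscles of both legs were harvested, and no label ties a muscle to an animal. The p-values below thus cover the spread among these arrays only, and part of that spread may be technical.

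Spermine oxidase turns spermine into spermidine. Spermidine is the donor for hypusine, a modified lysine that is found in the translation factor eIF5A and that eIF5A needs for its work on the ribosome. At the start of translation, eIF2 brings the initiator tRNA to the small ribosomal subunit, eIF2B recharges eIF2 with GTP, eIF3 holds the small subunit, and the eIF4 group binds the mRNA cap and unwinds the leader. In elongation, eEF1A delivers aminoacyl-tRNA and eEF2 moves the ribosome on by 1 codon. In muscle this machinery sets the rate of protein synthesis under the control of eIF2 kinases and of mTOR.

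All levels are log2 signals as deposited, and differences are spermine oxidase minus control with the standard error from limma. Dim probes crowd at the bottom of the scale, and a gene is called near this floor when its mean over 8 arrays was under 8.5, as for 11 of the 58 genes. There a difference is understated, and a low reading does not show that the mRNA was absent. Levels of different probes are not set against each other, and precision is limited by having 4 arrays a group.

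The largest difference among the 58 genes was in Eif2s2, the beta subunit of eIF2, which was higher by 0.59 on the log2 scale after spermine oxidase, with no overlap between the groups. Its partner gene Eif2s3x, a gamma subunit, differed by -0.02 ± 0.04. Cap-binding proteins went different ways, with Eif4e2 lower, and Eif4e3 and Eif4e higher. On their brightest probes the eIF5A and eEF1A genes and Eef2 differed by less than their SD among control muscles. Of these, Eif5a2 and Eef1a1 were near the floor, and the sign of Eef1a2 depended on the probe. None of the 58 genes passed an adjusted p of 0.05 in limma with Benjamini-Hochberg adjustment over all 16593 genes, where the share called was 0%.

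Start-site sequence is shown for 3 genes whose differences contrast: Eif2s2, its complex partner Eif2s3x and the cap-binding gene Eif4e2. The first 3 lines give the 120 bases before an annotated transcript start, and the fourth gives 30 bases from just after the Eif2s2 start, from RefSeq on GRCm38.p6. They are written 5′ to 3′ along the gene. Capitals mark matches on either strand to any of 5 motifs searched, which were that of nuclear respiratory factor 1, CCGGAAGT (ETS family), CACGTG (known as the E-box), CCAAT, and the GC box sequence GGGCGG. No matches overlapped in these windows.
Eif2s2, chr2:154892907-154893026, minus strand: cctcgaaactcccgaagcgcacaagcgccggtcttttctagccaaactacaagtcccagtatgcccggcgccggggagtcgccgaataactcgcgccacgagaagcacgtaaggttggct
Eif2s3x, chrX:94212652-94212771, minus strand: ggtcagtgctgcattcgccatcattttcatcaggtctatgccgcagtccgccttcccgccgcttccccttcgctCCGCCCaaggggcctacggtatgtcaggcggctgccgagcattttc
Eif4e2, chr1:87213819-87213938, plus strand: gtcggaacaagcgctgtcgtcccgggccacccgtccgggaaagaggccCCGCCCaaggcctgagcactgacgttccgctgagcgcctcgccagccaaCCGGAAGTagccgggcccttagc
Eif2s2, chr2:154892857-154892886, minus strand: ggcgagctctGCGCAGGCGCacttccaacg

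The window searched ran from 250 bases before to 50 bases after each start, and 45 of the 58 genes had such a window. In Eif2s2 the nuclear respiratory factor 1 motif was found at bases 31 to 40 after the start, and none of the other 4 motifs was in its window. The same motif was in 4.60% of all 32851 windows and in at least 1 window of 6 of the 45 genes, which were Eef1e1, Eif2s2, Eif3a, Eif3k, Eif4e and Eif5a. The ETS motif of Eif4e2, shown above, was in 3.89% of all windows and in 9 of the 45 genes. In Eif4e2 it lay at bases -23 to -16 from the start shown, and at bases 6 to 13 and 3 to 10 after other annotated starts. The GC box was in 35.7% of all windows and in 34 of the 45 genes, among them Eif2s3x, Eif2s3y and Eif4e2 but not Eif2s2. A gene can have several windows, so the shares of genes and of windows are not on the same base, and a match is a description of letters, not of binding.

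The targeted gene and the tissue were checked before the factors. Smox, the gene on the plasmid, read 11.15, 10.92, 10.90 and 10.17 in control muscles 1 to 4 and 12.58, 11.56, 12.02 and 11.60 in spermine oxidase muscles 1 to 4 on its brightest probe, so the groups did not overlap. On that probe the log2 difference was 1.16 ± 0.28 (limma adjusted p = 0.233). Another Smox probe differed by 1.15 ± 0.29, and the rest, dim in control muscles, by 3.30 to 3.44. Fast fibre genes such as Acta1, Ckm and Mylpf were near the top of the scale, with group means of 13.73 to 15.20 in control muscles for the 9 genes listed. Control muscle 4 and spermine oxidase muscle 1 stood apart from the rest. The SD of the 58 genes' deviations from their own means was 0.17 and 0.18 in these muscles and 0.09 to 0.11 in the other 6, and results are therefore also given without both.

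Marker lists of several cell and fibre types leaned to 1 side, where 50.8% of all genes were lower after spermine oxidase. No marker gene passed a limma adjusted p of 0.05, the smallest being 0.179. Fast fibre genes were higher in 6 and lower in 3 of 9 cases. Myh4 was higher by 0.34 ± 0.11 with overlap, and Pvalb by 0.05 ± 0.02 without overlap. The listed genes of regenerating fibres and satellite cells were lower in 6 of 6 measured cases, with a mean level of 11.61 to 11.94 over control muscles and 10.76 to 11.60 over spermine oxidase muscles. Pax7, the defining satellite cell gene, was near the floor at 8.22 in control muscles. Slow fibre genes were lower in 4 of 5 cases, with mean levels of 10.12 to 10.95 in control and 9.72 to 10.59 in spermine oxidase muscles. Endothelial genes were higher in 5 of 5 cases, with mean levels of 9.16 to 9.20 and 9.27 to 9.43. Adipocyte genes were higher in 3 of 3 cases, with mean levels of 8.39 to 8.66 and 8.76 to 8.82, and Plin1 among them was near the floor. Macrophage genes were lower in 3 of 4 cases and fibroblast and tendon genes in 4 of 7, with mean levels that overlapped. Fmod, of the fibroblast and tendon list, was higher by 1.06 ± 0.18 without overlap (limma adjusted p = 0.179). Both red cell genes measured were higher, with mean levels of 10.15 to 10.64 and 10.55 to 11.06. Mbp, the only Schwann cell gene measured, was higher by 0.33 ± 0.13 with overlap. Myh7, Kdr, Lep, Tnmd and Alas2 of these lists were near the floor as well. In bulk muscle, fewer cells of a type and less RNA per cell cannot be told apart, and the part of these shifts in the results on translation factors was not tested.

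The 58 genes as a list differed little. After spermine oxidase 18 were higher and 40 lower, or 69.0% lower, against 50.8% of all genes, and the median difference was -0.02, against -0.00064 for all genes. Of the 47 genes not near the floor 30 were lower, or 63.8%, against 53.0% of such genes on the array. Groups did not overlap for 4 of the 58 genes, or 6.90%, where 6.18% of all genes did so. Of these, 3 were higher and 1 lower, beside 3.66% and 2.51% of all genes. At an unadjusted p under 0.05 there were 6 higher and 3 lower, or 15.5% of the 58, beside 11.0% of all genes. Among genes not near the floor the share was 9 of 47, or 19.1%, beside 20.2% of the 7307 such genes on the array. The shares without overlap, and those past the unadjusted p among genes not near the floor, are near the background and are no result about the factors as a list. The larger share of lower genes was not tested, and 37 of the 58 were lower without control muscle 4 and spermine oxidase muscle 1.

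**Figure D1:**
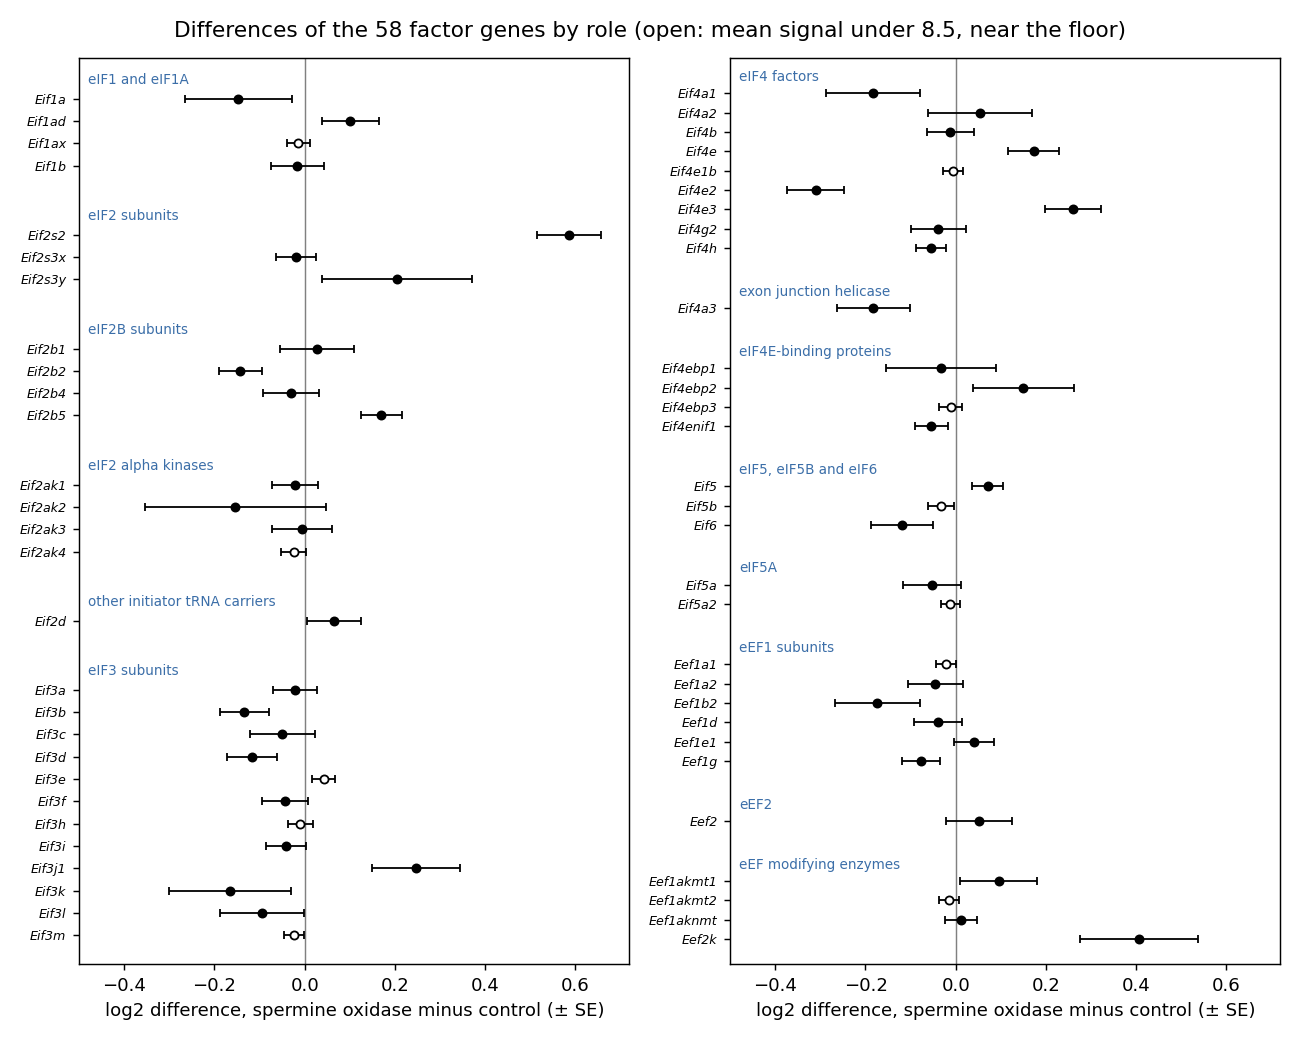
Log2 difference, spermine oxidase minus control, with its limma standard error, for each of the 58 genes, ordered by role (n = 4 muscles in each group). Open points are genes near the floor. Eif2s2 at 0.59 lies furthest from 0, Eef2k follows at 0.41, and Eif4e2 at -0.31 is the lowest.

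The trimeric eIF2 was measured through 3 genes, and Eif2s1, the alpha subunit, is not analysed here. Eif2s2, the beta subunit, read 10.65, 10.56, 10.70 and 10.51 in control muscles 1 to 4 and 11.30, 11.04, 11.30 and 11.11 in spermine oxidase muscles 1 to 4. The lowest spermine oxidase muscle lay 0.35 above the highest control muscle. Group means were 10.60 ± 0.09 (SD, n = 4) and 11.19 ± 0.13 (SD, n = 4), a log2 difference of 0.59 ± 0.07 (95% interval 0.42 to 0.75), rank 3 of 16593 genes by p. Its limma p was 4.49e-05 and its adjusted p = 0.147. Without control muscle 4 and spermine oxidase muscle 1 the log2 difference was 0.52 (limma adjusted p = 0.288). Leaving out spermine oxidase muscle 2, the lowest of its group, gave 0.63 with a limma adjusted p = 0.0425. The other single omissions gave limma adjusted p-values of 0.108 to 0.394, and 3 other normalizations gave 0.146 to 0.159. A robust prior that follows the intensity gave a limma adjusted p = 0.0351.

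A second, dimmer Eif2s2 probe also separated the groups. It read 9.20, 9.27, 9.21 and 9.19 in control muscles 1 to 4 and 9.91, 9.45, 9.66 and 9.53 in spermine oxidase muscles 1 to 4. The log2 difference there was 0.42 ± 0.09, and on both probes spermine oxidase muscle 2 was the lowest of its group.

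The gamma subunit has an X-linked and a Y-linked gene in the mouse, and both were measured on 1 probe each. Eif2s3x, the X-linked copy, read 10.13, 10.13, 10.04 and 10.01 in control muscles and 10.08, 9.97, 10.04 and 10.14 in spermine oxidase muscles. The groups overlapped throughout, and the difference of -0.02 ± 0.04 had a 95% interval of -0.12 to 0.09. Eif2s3y, the Y-linked copy, read 10.28, 9.90, 10.58 and 10.10 in control muscles and 10.55, 10.07, 10.59 and 10.47 in spermine oxidase muscles. It varied widely within each group, with muscle 2 lowest and muscle 3 highest in both, and its difference was 0.20 ± 0.17 (limma adjusted p = 0.720).

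Side by side, Eif2s2 differed by 0.59 and Eif2s3x by -0.02. A permutation test of the gap between the genes was run, but it carries no weight because Eif2s2 was singled out for its difference. As a group the 3 eIF2 genes had a median difference of 0.20, which is the value of Eif2s3y, while the other 55 genes had a median of -0.02, with 16 higher and 39 lower. The eIF2 median ran from 0.10 without control muscle 2 to 0.33 without control muscle 3, and was 0.32 without spermine oxidase muscle 2 and 0.12 without control muscle 4 and spermine oxidase muscle 1 together. No test of eIF2 against the rest was made, and of the 3 genes only Eif2s2 separated the groups.

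**Figure D2:**
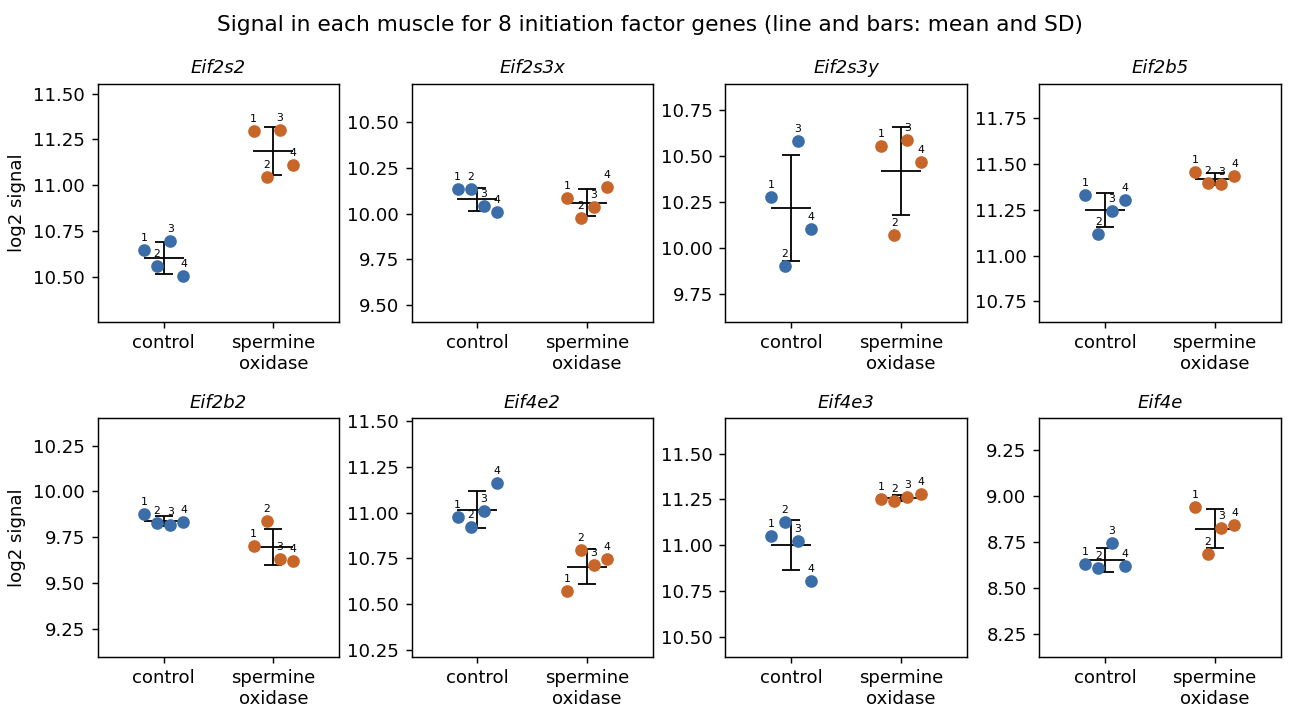
Log2 signal in each of the 8 muscles for 8 initiation factor genes, with replicate numbers beside the points. Lines and bars are group means and SDs (n = 4 each), and every panel spans the same height on its log2 axis. Eif2s2, Eif2b5, Eif4e2 and Eif4e3 separate the groups, and the other 4 genes overlap.

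The nucleotide exchange factor eIF2B, which recycles eIF2, was measured through 4 of its subunit genes, and 2 were higher and 2 lower. Eif2b5, the catalytic epsilon subunit, read 11.33, 11.12, 11.25 and 11.30 in control muscles and 11.46, 11.40, 11.39 and 11.44 in spermine oxidase muscles. All 4 spermine oxidase muscles lay above the highest control by at least 0.06, and the difference was 0.17 ± 0.05 (limma adjusted p = 0.265). Its dimmer probes differed by 0.05 ± 0.06 and 0.04 ± 0.07 and overlapped, so the separation rests on the brightest probe. Eif2b2, the regulatory beta subunit, read 9.88, 9.83, 9.82 and 9.83 in control muscles and 9.70, 9.84, 9.63 and 9.62 in spermine oxidase muscles. Spermine oxidase muscle 2 sat among the controls and the other 3 below them, with a difference of -0.14 ± 0.05 (limma adjusted p = 0.339). The alpha and delta subunit genes Eif2b1 and Eif2b4 differed by 0.03 ± 0.08 and -0.03 ± 0.06.

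The 4 kinases that phosphorylate eIF2 alpha, and so slow initiation under stress, did not separate the groups. Eif2ak2, the double-stranded RNA sensor PKR, varied more than any other of the 58 genes after spermine oxidase. It read 10.87, 11.15, 11.44 and 11.02 in control muscles and 10.47, 11.32, 11.20 and 10.88 in spermine oxidase muscles, with a difference of -0.15 ± 0.20. Eif2ak1, the heme-regulated kinase, Eif2ak3, the endoplasmic reticulum kinase PERK, and Eif2ak4, the amino acid sensor GCN2, differed by -0.02 ± 0.05, -0.01 ± 0.07 and -0.02 ± 0.03, and Eif2ak4 was near the floor. Eif2d, a separate initiator tRNA carrier, differed by 0.07 ± 0.06.

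Genes of eIF3, the large scaffold on the small ribosomal subunit, were lower in 10 of 12 cases, by a median of -0.04. Without control muscle 4 alone 8 of 12 were lower, and without spermine oxidase muscle 1 alone 9 of 12. With both left out, 6 of 12 were lower and the median was -0.01. Over the 9 eIF3 genes not near the floor, control muscle 4 had the highest median deviation of the 8 muscles, at 0.15, and spermine oxidase muscle 1 the lowest, at -0.09. Leaving out both muscles was therefore likely to shrink the difference. Of the 12, only Eif3b and Eif3j1 had an unadjusted p under 0.05, and neither separated the groups. That is 16.7% of the 12 beside 11.0% of all genes, and 22.2% of the 9 not near the floor beside 20.2% of such genes.

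Eif3b, a core subunit, read 9.92, 9.90, 9.72 and 9.96 in control muscles and 9.72, 9.82, 9.72 and 9.71 in spermine oxidase muscles. Control muscle 3 lay within the spermine oxidase values, and the difference was -0.13 ± 0.05 (limma adjusted p = 0.425). Eif3j1, a loosely bound subunit, went the other way, reading 8.76, 8.61, 8.65 and 8.59 in control muscles and 9.17, 8.69, 8.93 and 8.81 in spermine oxidase muscles. Spermine oxidase muscle 1 was highest, and the difference was 0.25 ± 0.10 with it and 0.16 without it. Eif3d, which can bind the mRNA cap, read 12.06, 12.02, 12.04 and 12.16 in control muscles and 11.89, 12.11, 11.88 and 11.93 in spermine oxidase muscles. Only spermine oxidase muscle 2 reached the control values, and the difference was -0.12 ± 0.06.

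The remaining eIF3 genes differed by -0.17 to 0.04. Eif3k was the most variable, from 9.96 to 10.65 in control muscles. Eif3f, known in muscle as a target of the atrophy ligase atrogin-1, differed by -0.04 ± 0.05. Eif3l was lower on both of its probes, by -0.09 ± 0.09 and -0.15 ± 0.05.

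Of the 4 genes for cap-binding proteins of the eIF4E family, 3 had an unadjusted p under 0.05, where 11.0% of all genes and 20.2% of those not near the floor did. The family is too small to read a share from. Eif4e2, also known as 4EHP, binds the cap without recruiting the scaffold eIF4G and acts as a translational repressor. It read 10.97, 10.92, 11.01 and 11.16 in control muscles and 10.57, 10.79, 10.71 and 10.75 in spermine oxidase muscles. Every spermine oxidase muscle was below every control, by at least 0.13, and the difference was -0.31 ± 0.06 (limma adjusted p = 0.185). Its 2 dimmer probes were lower as well, by -0.12 ± 0.04 and -0.14 ± 0.03, and the second of them separated the groups. Without control muscle 4 and spermine oxidase muscle 1 the difference on the brightest probe was -0.22.

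Eif4e3, another cap-binding relative, read 11.05, 11.12, 11.02 and 10.81 in control muscles and 11.25, 11.24, 11.27 and 11.28 in spermine oxidase muscles. The spermine oxidase muscles lay within 0.04 of each other, above all controls, with a difference of 0.26 ± 0.06 (limma adjusted p = 0.233). Its dimmer probes differed by 0.20 ± 0.10 and 0.14 ± 0.10, in the same direction but with overlap. Eif4e itself, the canonical cap-binding factor, read 8.63, 8.61, 8.75 and 8.62 in control muscles and 8.94, 8.68, 8.83 and 8.84 in spermine oxidase muscles. It was 0.17 ± 0.06 higher (limma adjusted p = 0.332), with control muscle 3 above spermine oxidase muscle 2. Eif4e1b, a relative known from oocytes, was near the floor.

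**Figure D3:**
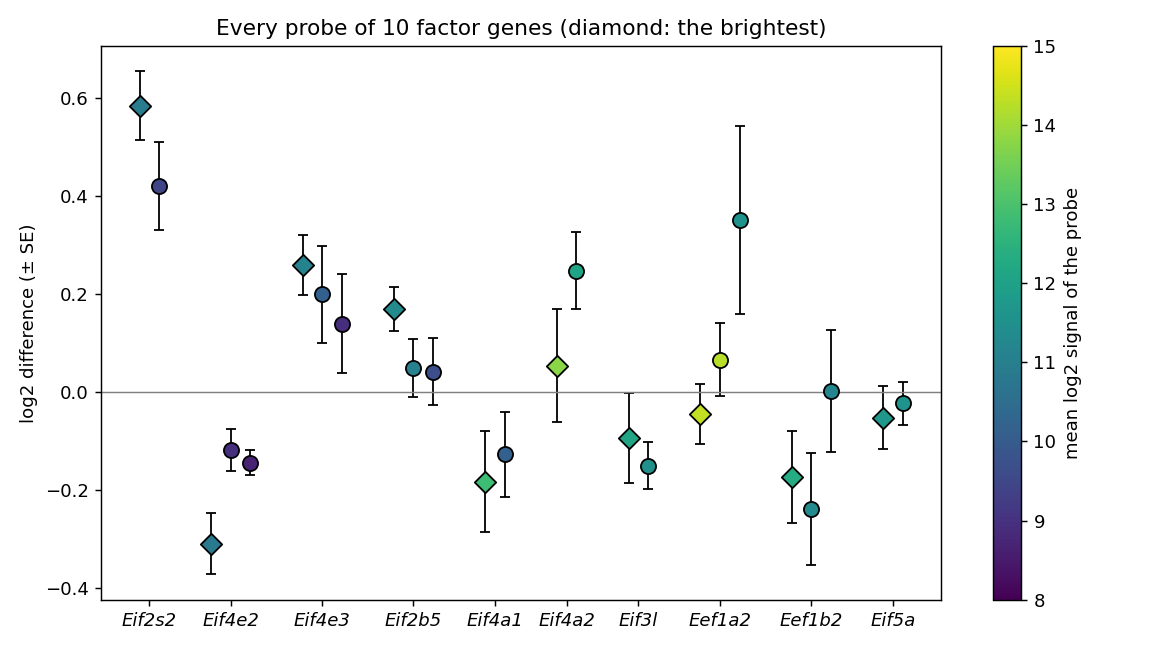
Log2 difference, spermine oxidase minus control, with its limma standard error, for every probe of 10 factor genes, coloured by the probe's mean log2 signal. Diamonds mark the brightest probe of each gene. Both Eif2s2 probes lie above 0, all 3 Eif4e2 probes below and all 3 Eif4e3 probes above, while the probes of Eef1a2 fall on both sides.

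The rest of the eIF4 group showed smaller differences. Eif4a1 and Eif4a2 encode the RNA helicase that unwinds mRNA leaders. Eif4a1 read 12.85, 12.68, 12.91 and 13.14 in control muscles and 12.54, 12.83, 12.80 and 12.67 in spermine oxidase muscles, a difference of -0.18 ± 0.10 with overlap. Eif4a2 differed by 0.05 ± 0.12 on its brightest probe and by 0.25 ± 0.08 on a dimmer one. The helicase partners Eif4b and Eif4h and the scaffold relative Eif4g2 differed by -0.01 ± 0.05, -0.06 ± 0.03 and -0.04 ± 0.06. Eif4a3, a helicase of the exon junction complex, read 10.57, 10.49, 10.37 and 10.66 in control muscles and 10.37, 10.51, 10.22 and 10.26 in spermine oxidase muscles. The muscles of the groups interleaved and the difference was -0.18 ± 0.08.

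Proteins that hold eIF4E back were also read. Eif4ebp1, which mTOR phosphorylates to release eIF4E, read 11.82, 11.71, 11.64 and 11.74 in control muscles and 11.69, 11.999, 11.74 and 11.36 in spermine oxidase muscles. Spermine oxidase muscles 2 and 4 held the highest and the lowest value of all 8, and the difference was -0.03 ± 0.12 (95% interval -0.31 to 0.25). Eif4ebp2 differed by 0.15 ± 0.11 and the eIF4E transporter gene Eif4enif1 by -0.05 ± 0.04, while Eif4ebp3 was near the floor.

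Late initiation factors differed by small amounts. Eif5, which triggers GTP hydrolysis by eIF2, read 12.56, 12.51, 12.65 and 12.57 in control muscles and 12.65, 12.58, 12.67 and 12.69 in spermine oxidase muscles. The groups overlapped, with a difference of 0.07 ± 0.03 on the brightest probe and of -0.02 ± 0.08 and -0.01 ± 0.06 on the others. Eif6, which keeps ribosomal subunits apart, differed by -0.12 ± 0.07, and Eif5b, which joins the subunits, was near the floor. The factors eIF1 and eIF1A guide start codon choice. Of their genes, Eif1a differed by -0.15 ± 0.12 and Eif1b by -0.02 ± 0.06, and Eif1ax was near the floor. Eif1ad, grouped with them by its name only, differed by 0.10 ± 0.06.

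The hypusine-bearing factor eIF5A is the translation factor tied most directly to spermidine. Eif5a read 11.85, 11.85, 11.63 and 11.69 in control muscles and 11.70, 11.81, 11.68 and 11.61 in spermine oxidase muscles. The groups overlapped, and the difference was -0.05 ± 0.06 (95% interval -0.20 to 0.10). A second probe differed by -0.02 ± 0.04. Eif5a2, its paralogue, was dim throughout, reading 8.23, 8.27, 8.21 and 8.22 in control muscles and 8.26, 8.21, 8.23 and 8.20 in spermine oxidase muscles. These are mRNA levels, and hypusine itself was not measured. Dhps and Dohh, the enzymes that make hypusine, are not analysed here.

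Elongation factor genes were close between groups. Mature muscle uses eEF1A2 in place of eEF1A1. Eef1a2 read 14.53, 14.35, 14.28 and 14.37 in control muscles and 14.41, 14.31, 14.22 and 14.40 in spermine oxidase muscles. The difference was -0.05 ± 0.06 there, and 0.07 ± 0.08 and 0.35 ± 0.19 on its dimmer probes, so its sign depends on the probe. Eef1a1 was near the floor and read 8.20, 8.26, 8.20 and 8.26 in control muscles and 8.22, 8.22, 8.18 and 8.22 in spermine oxidase muscles. The exchange factor genes Eef1b2, Eef1d and Eef1g differed by -0.17 ± 0.09, -0.04 ± 0.05 and -0.08 ± 0.04. Eef1e1, which encodes a tRNA synthetase complex protein, differed by 0.04 ± 0.04, so that 5 of the 6 genes with an eEF1 subunit name were lower, none past an unadjusted p of 0.05.

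Eef2, the translocation factor, read 10.79, 10.69, 10.58 and 10.86 in control muscles and 10.94, 10.77, 10.74 and 10.68 in spermine oxidase muscles. The groups overlapped, with a difference of 0.05 ± 0.07 (95% interval -0.12 to 0.22). Eef2k, the kinase that inhibits eEF2, read 9.11, 8.83, 8.97 and 8.68 in control muscles and 9.62, 9.09, 9.20 and 9.29 in spermine oxidase muscles. It was 1.32-fold higher, a log2 difference of 0.41 ± 0.13 (limma adjusted p = 0.325), with control muscle 1 just above spermine oxidase muscle 2. Control muscle 4 was its lowest and spermine oxidase muscle 1 its highest value, and without both the difference was 0.23. The eEF1A methyltransferase genes Eef1akmt1, Eef1akmt2 and Eef1aknmt differed by 0.095 ± 0.086, -0.01 ± 0.02 and 0.01 ± 0.04. Of these, Eef1akmt2 was near the floor.

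**Figure D4:**
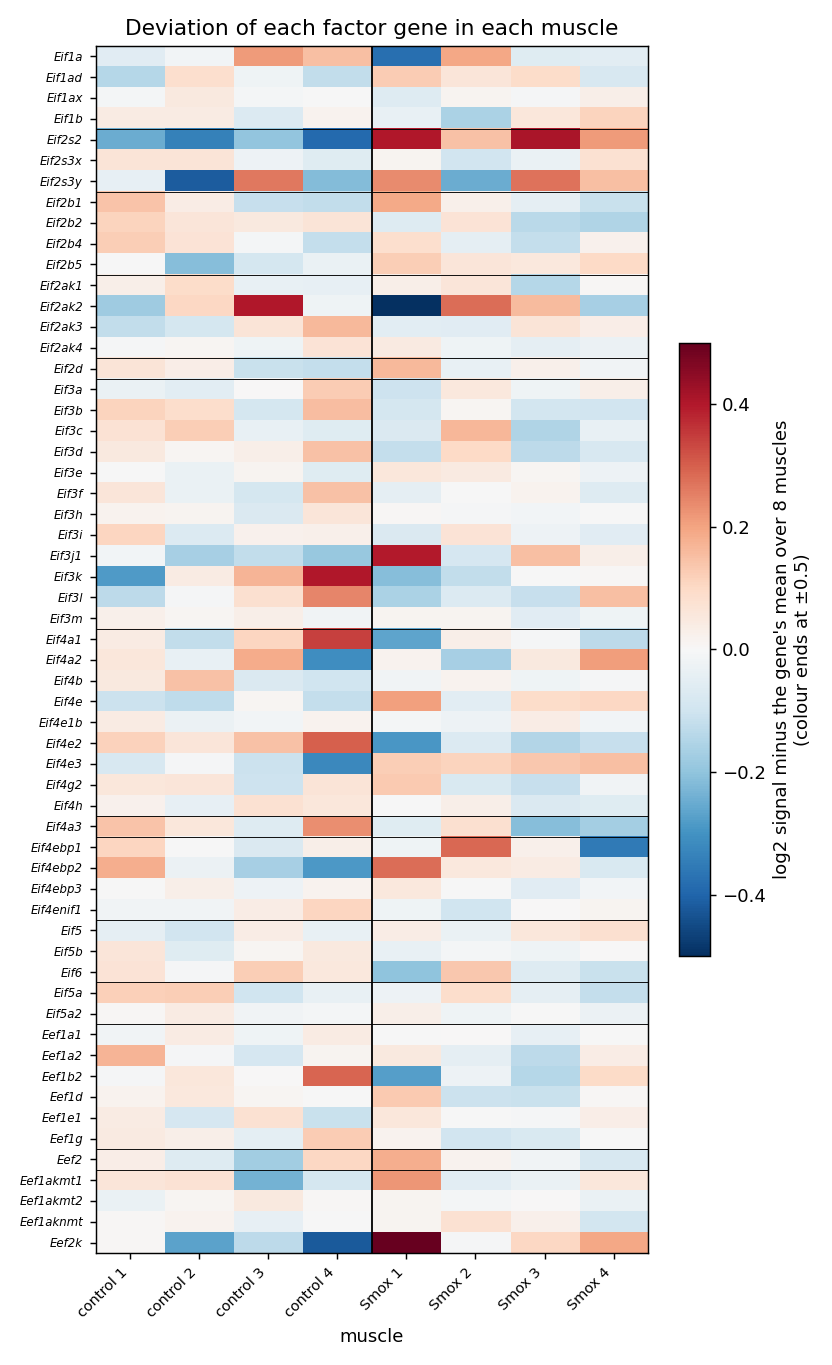
Log2 signal of each of the 58 genes in each muscle, minus the gene's mean over the 8 muscles, with rows grouped by role and colour ending at ±0.5. Control muscle 4 and the spermine oxidase muscle labelled Smox 1 carry the strongest colours, and the row of Eif2s2 changes colour at the line between the groups.

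Genes of translation outside the naming rule were counted from lists of release, poly(A)-binding, mitochondrial, eIF2 phosphatase, mTOR and selenocysteine genes. Of 48 measured, 28 were higher and 20 lower with a median of 0.02, and 3 higher and 2 lower had an unadjusted p under 0.05, beside 6.33% and 4.72% of all genes. Groups did not overlap for 3 of the 48, or 6.25%, near the 6.18% of all genes. Ppp1cb, a catalytic subunit of the phosphatase that can reverse eIF2 alpha phosphorylation, was the only 1 of these that was higher (0.41 ± 0.10, limma adjusted p = 0.233). Another catalytic subunit gene, Ppp1ca, differed by -0.11 ± 0.05 with overlap. The regulatory partners Ppp1r15a and Ppp1r15b differed by 0.15 ± 0.13 and -0.05 ± 0.06. Paip2b, an inhibitor of poly(A)-binding protein, was 0.33 ± 0.12 higher, while Pabpc4 differed by 0.31 ± 0.15 and Pabpc1 by -0.23 ± 0.12. Rps6, the ribosomal protein that is phosphorylated downstream of mTOR, was lower without overlap (-0.25 ± 0.10, limma adjusted p = 0.401). The mitochondrial release factor gene Mtrf1 differed by 0.16 ± 0.06. Eefsec, the selenocysteine elongation factor, was lower without overlap, by -0.05 ± 0.02 near the floor. No gene of the 9 release and recycling factors reached an unadjusted p under 0.05.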

How the data were processed

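Total RNA of 8 tibialis anterior muscles was hybridised to Illumina bead arrays. Per the labels' protocols, TRIzol extraction and an RNeasy and DNase clean-up came before amplification and biotin labelling. The log2 values are those the authors deposited. Values ran from 8.10 to 15.29, and the sorted values of the arrays lay within 0.155 of each other, so they had been normalized between arrays before deposit. How the authors normalized and corrected background is not given in the sources. Samples were grouped by their titles.

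Of 25697 probes, 23978 were named with 1 gene through GEO's platform annotation, 0 with several, and 1719 were unnamed here. Tests used lmFit and eBayes of limma 3.58.1 under R 4.3.3 (two-sided, Benjamini-Hochberg adjustment over 16593 genes, threshold 0.05), checked on simulated data. No dim genes were removed. The members, lists and the pair of muscles left out together were chosen with earlier results of these data known. Values in every muscle are given for the eIF2, eIF5A, Eef1a1, Eef1a2, Eef2 and Eif4ebp1 genes and the 12 members with the smallest p, and each outside list is named by at most 4 genes, those of smallest p. Muscle values of Eif2ak2, Eif4a1 and a second Eif2s2 probe, and the naming of Ppp1ca, Ppp1r15a and Ppp1r15b, were chosen once their values were known. Alternatives were the replicate block, 3 normalizations, a filter on the dimmest 40% of probes, mean or single probes, 2 variance models, another threshold and leaving out muscles.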

Additional observations from a re-analysis of the deposited data

Results flagged for a closer look

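Among 118 groups of 4 muscles checked, for the 58 genes and Smox, 5 held a muscle whose gap to its nearest neighbour exceeded Dixon's 95% limit, where chance gives about 1 in 20. Eif3b read 9.82 in spermine oxidase muscle 2, while the other 3 lay between 9.71 and 9.72. Eif4e read 8.75 in control muscle 3, against 8.61 to 8.63 in the other controls. Eif4g2 read 9.55 in that same control muscle, against 9.71 to 9.72. In Eef1a1 and Eif1ax the values lay near the floor: Eef1a1 read 8.18 in spermine oxidase muscle 3, against 8.22 in the others, and Eif1ax read 8.30 in control muscle 2, against 8.24 to 8.25.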

How the results depend on the processing

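The 20 members given by muscle under the naming rule kept their direction under every alternative run except in 5 cases, for the 4 genes that follow. Eef1a2 turned to 0.12 with the mean of a gene's probes. When muscles were left out singly, ranges spanned 0 for Eef1a2 (-0.080 to 0.0033), Eef2 (-0.0012 to 0.093), Eif2s3x (-0.047 to 0.010) and Eif4ebp1 (-0.13 to 0.081). The Eif2s2 difference ran from 0.55 to 0.63 over muscles left out, with limma adjusted p-values of 0.0425 to 0.394. It passed 0.05 only without spermine oxidase muscle 2, with an intensity trend and robust prior (0.59, adjusted p = 0.0351) and with the replicate block. Over these settings and the others, members past an adjusted p of 0.05 numbered 0 or 1, that 1 being Eif2s2 under the trend, under the block and without spermine oxidase muscle 2. At an adjusted p of 0.10, tried with no other change, the count was 0. In all, 266, 8 and 14 of all 16593 genes passed 0.05 under the block, the trend and that omission. Members past an unadjusted p of 0.05 ran from 6 to 13 over muscles left out, 6 without spermine oxidase muscle 3 and 6 without control muscle 4 and spermine oxidase muscle 1 together. Without the dimmest 40% of probes 48 of the 58 members remained.

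Control and spermine oxidase titles both carry the numbers 1 to 4. With the replicate block, limma called Eif2s2 (0.59, adjusted p = 0.0159) and 16 members had an unadjusted p under 0.05. Equal numbers were not shown to pair muscles: deviations of same-numbered muscles correlated at -0.14 to 0.67 across genes, over 0.1 in 3 of 4 cases, and 6 of 8 muscles correlated best with their own number, a hint from the data and not from the design. The cause of these shifts was not tested. Depth is not defined for arrays, and genes near the floor limit what can be seen.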

Other observations

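Of the 5 Smox probes, 3 were dim in control muscles and ordered the spermine oxidase muscles differently from the brightest one. On one of the 3, ILMN_2608052, control muscles read 9.07, 8.85, 8.90 and 8.52 and spermine oxidase muscles 1 to 4 read 11.87, 13.29, 12.40 and 11.53, so muscle 2 was highest, while on the brightest probe muscle 2 was lowest at 11.56. Eif2s2 was lowest in muscle 2 on both of its probes, at 11.04 and 9.45. No relation between these readings was tested.

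Of the 23 translation factor genes with more than 1 probe, 13 had all probes on the same side of 0, among them Eif2s2, Eif4e2, Eif4e3 and Eif2b5, and 10 did not.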
